A study of Mus musculus with 6 samples.

Results

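MIN6, a mouse insulinoma cell line, stands in for the pancreatic beta cell in culture, and the genes described here make, lengthen and desaturate fatty acids in it. The set holds 10 genes, Fasn, Acaca, Acacb, Scd1, Scd2, Elovl5, Elovl6, Fads1, Fads2 and Srebf1, taken by their symbols. Every probe set of the array whose annotation gave one of these symbols alone was included, which made 21 probe sets of the 45037 tested. A probe set is a group of short probes that together read 1 transcript, and no probe set carried a member symbol beside another symbol. Fasn and Srebf1 have 1 probe set each, Acaca, Acacb, Scd1, Elovl5 and Fads1 have 2, and Scd2, Elovl6 and Fads2 have 3.

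Both groups were MIN6 cells given siRNA by nucleofection together with a lipid reagent, and total RNA was taken 72 hours later. In the control group the siRNA was a scrambled negative control. In the other group it targeted Hlxb9, the homeobox transcription factor whose gene symbol is Mnx1, and only transfections in which a western blot showed Hlxb9 protein reduced by over 75% went on to arrays. There are 3 arrays per group, numbered 1 to 3 in the titles. The labels call the samples sorted cells and name no gate, and they do not tie each array to its own transfection, so p-values measure the spread between these arrays, which may be partly technical. Values are log2 signals, on which a difference of 1 is a 2-fold change.

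Fatty acids are built in the cytosol from acetyl-CoA. Acetyl-CoA carboxylase makes malonyl-CoA, fatty acid synthase joins the carbon units into palmitate, and elongases and desaturases of the endoplasmic reticulum then lengthen the chain and put in double bonds. Much of this pathway is under the control of SREBP-1, the membrane-bound factor that Srebf1 encodes. In beta cells malonyl-CoA is also known as a link between glucose use and fatty acid oxidation, and unsaturated chains are known to lessen the harm that palmitate does to the cell.

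No probe set of the 21 passed the test between the groups. Limma, which compares group means with a spread partly shared over all probe sets, called 0 of 21 at an adjusted p of 0.05, and the smallest adjusted p among them was 0.692. Over the whole array it also called 0%. At an unadjusted p of 0.05 it called 0 of 21, where the share over all probe sets was 7.62%. With arrays weighted by their agreement, limma called 0 of 21 and 1132 (2.51%) of all probe sets at the adjusted threshold, and 1 of 21 against 24.9% of all at the unadjusted one. With the replicate number as a block it passed 0 of 21 and 9.31% of all at the unadjusted threshold. Differences ran from -0.26 to 0.47 log2, 8 above 0 and 13 below, with a median of -0.032 against 0.0041 for all probe sets. The median size of a difference, ignoring its sign, was 0.060 for the 21 probe sets and 0.12 over the array. Without control replicate 3 these median sizes were 0.096 and 0.11. After each array was centred on its own median, 5 were above 0 and 16 below, and the median over all probe sets itself stood at -0.048. In bulk RNA, fewer cells of a type and less RNA per cell cannot be told apart.

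The arrays also bound how large a change could have been. The 95% interval of the difference lay within a 2-fold change in either direction for 20 of 21 probe sets (97% of all probe sets) and within a 1.5-fold change for 16 (74.9% of all). The 5 exceptions at 1.5-fold were 1 probe set of Acaca, 2 of Scd2, 1 of Fads2 and that of Srebf1. On each of these, control replicate 3 lay outside the range of the other 5 arrays. With that array left out, all 21 intervals lay within a 1.5-fold change. The array was singled out after its values were seen, and the share over all probe sets was not computed for that fit. Nothing particular to these genes can therefore be read from that count.

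**Figure D1:**
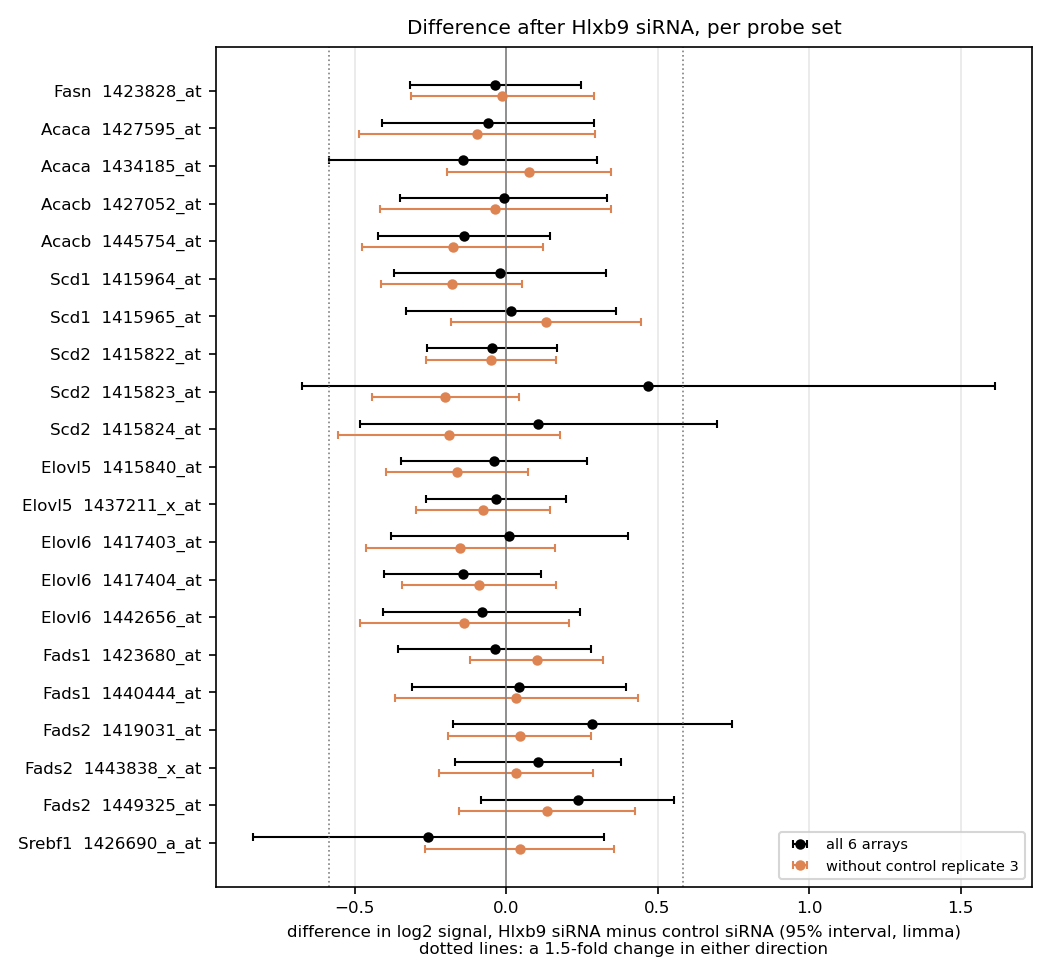
Difference in log2 signal between Hlxb9 siRNA and control siRNA for each of the 21 probe sets, with limma's 95% interval, from all 6 arrays (black) and without control replicate 3 (orange). All intervals of both kinds include 0, and the widest black interval, for Scd2 1415823_at, runs from -0.67 to 1.61.

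Control replicate 3 stood apart on the whole array. The gap between its Gapdh control probe sets near the 3' and the 5' end was 2.13 log2, where the remaining 5 arrays had 0.65 to 0.78, and the corresponding gap for beta-actin was 3.22 against 2.41 to 2.69. It correlated with the other arrays at 0.988 to 0.991, whereas the highest correlation of each other array was 0.997. It held the highest or lowest value of the 6 for 14 of 21 probe sets and for 57.45% of all probe sets. Relative to the mean of control replicates 1 and 2 it read at least 0.3 log2 higher on 4 of the 21 (20.1% of all) and at least 0.3 lower on 7 (17.7% of all). Differences without this array are given below where they moved by more than 1.5 times, and the part of RNA quality in them was not tested. Mnx1 itself, on its 1 probe set, read 7.82, 7.50 and 7.77 in controls and 7.53, 7.41 and 7.28 after Hlxb9 siRNA, a difference of -0.29 ± 0.13 (SE) with an adjusted p of 0.659. The groups overlapped, and the selection of samples had been made on protein. Of the beta cell markers measured here, all 6 (Ins2, Iapp, Pdx1, Slc2a2, Nkx6-1 and Slc30a8) were above the median of all probe sets. The 4 adipocyte markers measured were all below it, with list means of 3.22 to 3.55 in controls and 3.28 to 3.48 after Hlxb9 siRNA. Of other lists, 2 of 4 hepatocyte, 1 of 5 fibroblast, 1 of 5 leukocyte, 1 of 5 acinar and duct and 3 of 4 other islet hormone markers were above that median. Limma called none of these markers, and those at an unadjusted p of 0.05 were Apoa2, a hepatocyte marker, at 0.42 ± 0.11, and Cd68, a leukocyte marker, at 0.54 ± 0.13, both with an adjusted p of 0.645. With the replicate block, Alb (0.56 ± 0.33 without the block, pair differences of 0.54, 0.64 and 0.49), Ghrl (-0.45 ± 0.22) and Ppy, the islet hormone pancreatic polypeptide (1.13 ± 0.81, pair differences of 1.08, 1.08 and 1.23), passed the unadjusted threshold too, with adjusted p of 0.482, 0.513 and 0.478. Without control replicate 3, Alb differed by 0.89, Ghrl by -0.19 and Ppy by 0.32. The part of the marker genes in the results was not tested.

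Promoter windows of 7 of the 10 genes matched the RefSeq table, 9 windows in all since Srebf1 has 3 starts, and each covers 300 bases around an annotated start in GRCm38.p6. Windows for Scd1, Scd2 and Fads1 were not used here. Those printed belong to Fasn, the textbook target of SREBP-1, to Elovl5, the only member window with CACGTG, and to Srebf1 at 1 of its starts. Capitals mark CCAAT, the box bound by NF-Y, a common partner of SREBP, and CACGTG, a form of the E-box. Each was read on both strands (CCAAT appears as ATTGG on the other strand). Other forms of the E-box were not searched for and are not marked.
Fasn, chr11:120824498-120824797, minus strand: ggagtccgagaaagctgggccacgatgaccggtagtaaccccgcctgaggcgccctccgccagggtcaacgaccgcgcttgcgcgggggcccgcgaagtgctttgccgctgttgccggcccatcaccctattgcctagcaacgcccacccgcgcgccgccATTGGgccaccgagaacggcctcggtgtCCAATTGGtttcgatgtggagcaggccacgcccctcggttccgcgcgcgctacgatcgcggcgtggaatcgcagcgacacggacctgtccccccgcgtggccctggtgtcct
Elovl5, chr9:77917115-77917414, plus strand: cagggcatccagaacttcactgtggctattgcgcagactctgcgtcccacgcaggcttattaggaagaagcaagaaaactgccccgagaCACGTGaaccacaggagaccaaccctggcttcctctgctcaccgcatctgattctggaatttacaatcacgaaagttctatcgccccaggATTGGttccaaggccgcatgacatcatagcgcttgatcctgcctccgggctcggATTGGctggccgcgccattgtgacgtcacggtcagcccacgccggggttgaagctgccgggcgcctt
Srebf1, chr11:60210422-60210721, minus strand: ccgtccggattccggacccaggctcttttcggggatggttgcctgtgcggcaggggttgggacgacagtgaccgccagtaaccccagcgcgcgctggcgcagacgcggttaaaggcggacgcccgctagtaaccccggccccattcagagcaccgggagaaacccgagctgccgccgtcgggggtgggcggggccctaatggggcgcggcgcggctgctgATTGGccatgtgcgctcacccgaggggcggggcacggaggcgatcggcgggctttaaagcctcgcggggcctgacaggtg

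In the Fasn window CCAAT occurred 3 times, and matches on opposite strands overlap in the run CCAATTGG. CCAAT was present in the windows of 4 of 7 genes (5 of 9 windows), and 37.4% of all 32851 windows of the same length hold it. CACGTG was in 1 of 9 windows, against 7.2% of all. GGGCGG, the GC box bound by Sp1, was in 3 of 9 windows, of Srebf1 and Fads2, against 35.7%. TAATTA, a core sequence read by many homeodomain proteins, was in 0 of 9 windows and in 5.3% of all. These are letter matches in short windows, and none was tested for binding.

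The first committed step belongs to the acetyl-CoA carboxylases. Acaca encodes the cytosolic enzyme of lipogenic cells. Its brighter probe set, 1434185_at, read 9.32, 9.19 and 9.91 in controls and 9.44, 9.37 and 9.18 after Hlxb9 siRNA. Control replicate 3 was the highest of the 6, and the other 5 spanned 0.25 log2. The difference was -0.14 ± 0.19 (SE), an expression ratio of 0.906 with a 95% interval from 0.666 to 1.23 (adjusted p = 0.856), and it was 0.074 ± 0.11 without control replicate 3 and 0.12 with array weights. The other Acaca probe set was dim, between 2.96 and 3.44 on all arrays, well under the median of all probe sets of 5.16, and differed by -0.060 ± 0.15, and by -0.096 without control replicate 3.

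Acacb encodes the carboxylase at the mitochondrial surface, known for setting the malonyl-CoA that restrains fatty acid entry into mitochondria. Its probe set 1427052_at read 5.94, 6.41 and 6.09 in controls and 6.01, 6.13 and 6.28 after Hlxb9 siRNA, so the Hlxb9 siRNA values lay inside the control range. The difference was -0.0082 ± 0.15 log2, with an interval from -0.35 to 0.33, and -0.036 without control replicate 3. The second probe set, 1445754_at, lay below the median of all probe sets, at 4.12, 3.91 and 3.91 in controls and 4.01, 3.73 and 3.78 after Hlxb9 siRNA. Within the pairs of equal number it was lower after Hlxb9 siRNA in all 3, at -0.11, -0.18 and -0.13, and its difference of -0.14 ± 0.12 had an adjusted p of 0.78.

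Fasn, the multifunctional fatty acid synthase, read 10.59, 10.53 and 10.63 in controls and 10.70, 10.59 and 10.34 after Hlxb9 siRNA. The controls lay close together, with an SD of 0.051, and the Hlxb9 siRNA arrays held both the highest and the lowest value of the 6. The difference was -0.036 ± 0.12 log2, a ratio of 0.975 with an interval from 0.803 to 1.19 (adjusted p = 0.95). It was -0.013 without control replicate 3 and 0.027 with array weights. Fasn is read by only 1 probe set, so no second measurement of it was at hand.

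**Figure D2:**
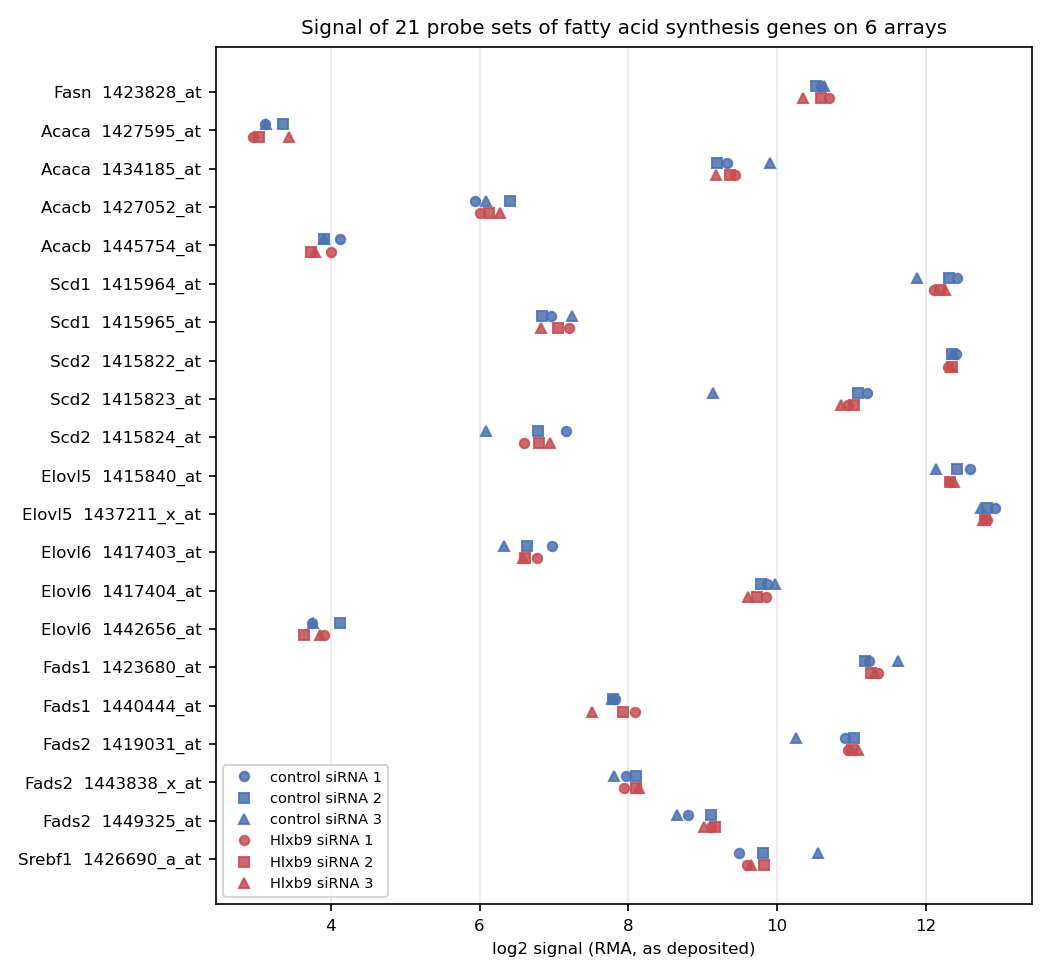
Log2 signal of each of the 21 probe sets on the 6 arrays, with control siRNA in blue and Hlxb9 siRNA in red and circles, squares and triangles for replicates 1, 2 and 3. Positions along the axis compare arrays within a probe set and not one probe set with another, since probes differ in brightness. For Scd2 1415823_at control replicate 3 stands at 9.14 and the other 5 arrays between 10.86 and 11.21.

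Stearoyl-CoA desaturases put the first double bond into saturated chains to give oleate and palmitoleate. Scd1 1415964_at read 12.41, 12.32 and 11.89 in controls and 12.11, 12.19 and 12.25 after Hlxb9 siRNA. The Hlxb9 siRNA arrays lay between control replicate 3 and the other controls, and the difference was -0.020 ± 0.15 log2 (interval -0.37 to 0.33). Without control replicate 3 it was -0.18 ± 0.098 (adjusted p = 0.586). Scd1 1415965_at gave 6.95, 6.84 and 7.25 in controls and 7.20, 7.06 and 6.82 after Hlxb9 siRNA, a difference of 0.015 ± 0.15 that became 0.13 without control replicate 3, -0.037 with each array centred and -0.048 with quantile normalization repeated. On control replicate 3 these probe sets of 1 gene moved in opposite directions, by -0.48 and 0.35 relative to the mean of the other controls.

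Scd2 showed the widest spread of all members on 1 probe set and the narrowest on another. On 1415822_at it read 12.40, 12.35 and 12.37 in controls and 12.29, 12.34 and 12.34 after Hlxb9 siRNA. All 6 arrays lay within 0.11 log2, and the Hlxb9 siRNA values were all below the controls, the only such separation of groups among the 21 probe sets (15.6% over all probe sets). The gap between the groups was very small, with 12.35 in control replicate 2 against 12.34 in Hlxb9 siRNA replicate 2, and the difference of -0.047 ± 0.093 log2 corresponds to a ratio of 0.968 (interval 0.834 to 1.12).

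On Scd2 1415823_at the controls read 11.21, 11.08 and 9.14 and the Hlxb9 siRNA arrays 10.95, 11.03 and 10.86. Control replicate 3 stood at -2.01 log2 relative to the mean of the other controls, while the other 5 arrays lay within 0.35 of each other. The difference of 0.47 ± 0.49 was the largest of the 21, and without that array it was -0.20 ± 0.10 (interval -0.44 to 0.042, adjusted p = 0.568). On 1415824_at the values were 7.16, 6.78 and 6.09 in controls and 6.60, 6.80 and 6.95 after Hlxb9 siRNA, with control replicate 3 again the lowest. The difference was 0.11 ± 0.25 with all arrays and -0.19 ± 0.15 without control replicate 3. All 3 Scd2 probe sets carry the same accession in the annotation, so they are not independent measurements of the gene.

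**Figure D3:**
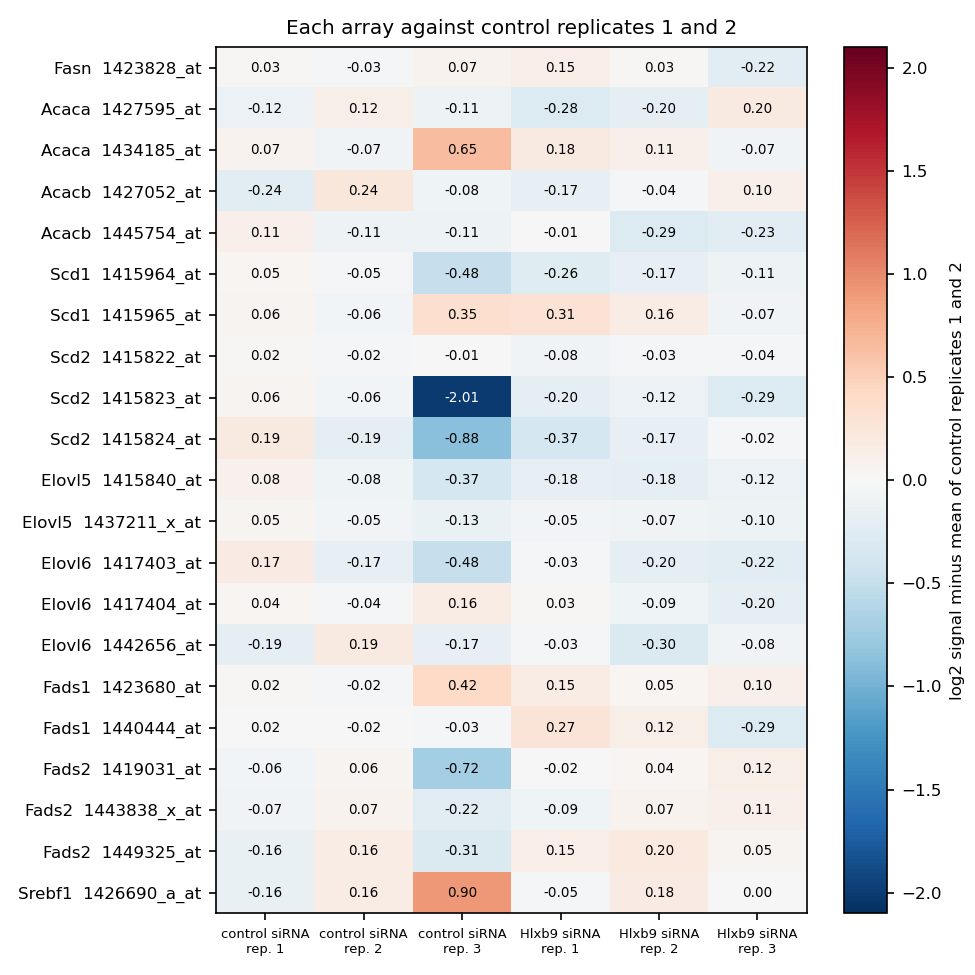
Log2 signal on each array minus the mean of control replicates 1 and 2, for the 21 probe sets; red is higher and blue lower. The column of control replicate 3 holds the extremes, -2.01 for Scd2 1415823_at and 0.90 for Srebf1.

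Elovl6 lengthens palmitate to stearate. Its brightest probe set, 1417404_at, read 9.86, 9.78 and 9.98 in controls and 9.85, 9.72 and 9.61 after Hlxb9 siRNA. Hlxb9 siRNA replicate 1 fell among the controls and the other Hlxb9 siRNA arrays lay below them. The difference of -0.14 ± 0.11 log2 (ratio 0.905, interval 0.757 to 1.08) had an adjusted p of 0.754 and was -0.090 without control replicate 3, and all 3 pair differences were below 0, at -0.012, -0.055 and -0.36. The probe set 1417403_at ranged from 6.33 on control replicate 3 to 6.98 on control replicate 1 and differed by 0.011 ± 0.17, which was -0.15 without control replicate 3, -0.042 after centring, -0.074 with quantile normalization repeated and -0.035 with array weights. The dim probe set 1442656_at, at 3.64 to 4.12, differed by -0.080 ± 0.14, and by -0.14 without control replicate 3. With array weights it stood at -0.34 with an unadjusted p of 0.0119 and an adjusted p of 0.103.

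Elovl5 lengthens polyunsaturated chains. On 1437211_x_at the 6 arrays lay between 12.74 and 12.93, and the difference was -0.032 ± 0.10 log2 (interval -0.26 to 0.20), and -0.076 without control replicate 3. The _x_at suffix of that probe set marks probes that can bind related sequences. On 1415840_at the controls read 12.59, 12.42 and 12.14 and the Hlxb9 siRNA arrays 12.33, 12.32 and 12.38. The spread of the controls was 0.23 (SD) and that of the Hlxb9 siRNA arrays 0.033, with control replicates 1 and 3 the highest and the lowest of the 6. The difference was -0.039 ± 0.13, and -0.16 ± 0.099 without control replicate 3.

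The front-end desaturases Fads1 and Fads2 add double bonds on the way to arachidonate and docosahexaenoate. Fads2, the delta-6 desaturase, was the only gene with several probe sets that all differed upward. On 1419031_at it read 10.91, 11.04 and 10.25 in controls and 10.95, 11.01 and 11.09 after Hlxb9 siRNA, a difference of 0.28 ± 0.20 log2 (ratio 1.22, interval 0.885 to 1.68, adjusted p = 0.73) that was 0.046 ± 0.099 without control replicate 3. On 1449325_at it read 8.81, 9.12 and 8.66 in controls and 9.11, 9.16 and 9.01 after Hlxb9 siRNA. All 3 pair differences there were above 0, at 0.30, 0.047 and 0.36, while Hlxb9 siRNA replicates 1 and 3 lay below control replicate 2. The difference of 0.24 ± 0.14 had the smallest unadjusted p of the 21, 0.126, with an adjusted p of 0.692, and was 0.13 without control replicate 3. The _x_at probe set 1443838_x_at, whose suffix marks probes that can bind related sequences, differed by 0.11 ± 0.12 and by 0.032 without that array.

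Fads1, the delta-5 desaturase, read 11.23, 11.19 and 11.63 in controls and 11.36, 11.26 and 11.31 after Hlxb9 siRNA on 1423680_at. Control replicate 3 was the highest array here, whereas it was the lowest for all 3 Fads2 probe sets. The difference was -0.038 ± 0.14 log2 with all arrays, 0.10 ± 0.092 without control replicate 3 and 0.077 with array weights. The other probe set, 1440444_at, read 7.83, 7.80 and 7.79 in controls and 8.08, 7.93 and 7.52 after Hlxb9 siRNA, so the controls lay close together, with an SD of 0.021, and the Hlxb9 siRNA arrays lay on both sides of them. Its difference was 0.042 ± 0.15, which was -0.010 after centring and -0.013 with quantile normalization repeated.

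Srebf1, read by 1 probe set whose _a_at suffix marks probes shared by several transcripts of a gene, read 9.49, 9.81 and 10.55 in controls and 9.60, 9.83 and 9.65 after Hlxb9 siRNA. The Hlxb9 siRNA arrays lay inside the range of the controls, and control replicate 3 was above the mean of the other controls by 0.90. The difference of -0.26 ± 0.25 log2 (ratio 0.837, interval 0.560 to 1.25, adjusted p = 0.80) was 0.044 ± 0.13 without control replicate 3. In pairs 1 and 2 it was 0.11 and 0.018, and in pair 3 it was -0.90.

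Taken by pairs of equal number, the 21 differences ran from -0.56 to 0.30 in pair 1, from -0.49 to 0.22 in pair 2 and from -0.90 to 1.73 in pair 3, which holds control replicate 3. All 3 pair differences went in 1 direction for 4 of the 21, against 34% of all probe sets. These were 1445754_at of Acacb, 1415822_at of Scd2 and 1417404_at of Elovl6, all lower after Hlxb9 siRNA, and 1449325_at of Fads2, higher. With the replicate number as a block, the smallest adjusted p of the 21 was 0.574, for Fads2 1449325_at. Where a gene had several probe sets, with all 6 arrays they differed in opposite directions for Scd1, Scd2, Elovl6 and Fads1 and in 1 direction for Acaca, Acacb, Elovl5 and Fads2.

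The pathway around these genes was read from 7 lists of related genes, 62 genes matched on the array, each gene by its brightest probe set. G6pdx, Nr1h2, Scd4 and Acsl1 were not analysed here. Among the genes named below, the brightest probe sets of Acly, Pgd and Cpt1a have the _x_at suffix of probes that can bind related sequences. Limma called 0 of 62 after adjustment. Before adjustment 3 passed 0.05, all lower after Hlxb9 siRNA, and the groups did not overlap for 13, against the shares of 7.62% and 15.6% over all probe sets given above. Among all 18193 genes, each read by its brightest probe set, 1446 passed 0.05 and the groups did not overlap for 3147. With the replicate block 5 of 62 passed the unadjusted threshold (9.31% of all probe sets), Thrsp and Fabp3 higher and Cpt1a, Acsl4 and Acot7 lower, so Idh1 and Insig2 no longer did. For the 5 that passed with the block, limma's adjusted p ranged from 0.496 to 0.533. Thrsp, a gene linked to lipogenesis and named here after its values were seen, differed by 0.35 with all arrays and by -0.075 without control replicate 3. Its other probe sets went the other way, at -0.26 to -0.20. In all, 30 differed above 0 and 32 below, with a median of -0.015, which was 0.018 without control replicate 3.

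Substrate and NADPH supply had 2 of 8 members above 0 and a median of -0.058, which was 0.067 without control replicate 3. Idh1, the cytosolic isocitrate dehydrogenase that yields NADPH, read 12.00, 11.98 and 11.83 in controls and 11.37, 11.65 and 11.81 after Hlxb9 siRNA, a difference of -0.33 ± 0.14 log2 (adjusted p = 0.653). Its other probe set differed by -0.12. Acly, which makes cytosolic acetyl-CoA from citrate, read 13.54, 13.38 and 13.48 in controls and 13.23, 13.38 and 13.22 after Hlxb9 siRNA and differed by -0.19 ± 0.10, its other probe sets by -0.73 to -0.074. Groups of both genes did not overlap, although for Acly control replicate 2 at 13.377 and Hlxb9 siRNA replicate 2 at 13.375 were nearly equal. Pgd, of the pentose phosphate pathway, differed by -0.30 ± 0.17, and by -0.12 without control replicate 3, with other probe sets at -0.27 to 0.0024.

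Among regulators of lipogenic transcription, 7 of 13 were above 0, with a median of 0.024, and of 0.0016 without control replicate 3. Mlxipl encodes ChREBP, the carbohydrate-responsive factor that acts on lipogenic and glycolytic genes beside SREBP-1. It read 11.23, 10.97 and 11.28 in controls and 11.66, 11.32 and 11.34 after Hlxb9 siRNA, all 3 above the controls, with a difference of 0.28 ± 0.14 (adjusted p = 0.667). Insig2, which holds the SREBP escort protein in the endoplasmic reticulum, read 9.52, 9.44 and 9.62 in controls and 9.35, 9.28 and 9.24 after Hlxb9 siRNA, a difference of -0.24 ± 0.10 (adjusted p = 0.653). Its other probe sets differed by 0.16 to 0.25, and the mean of its probe sets by 0.059. Mbtps2, a protease that releases SREBP, differed by -0.20 ± 0.11.

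Other elongases and steps of the elongation cycle had 6 of 10 members above 0 and a median of 0.041, which was 0.082 without control replicate 3. Tecr, the enoyl-CoA reductase that ends each cycle, read 11.47, 11.59 and 11.20 in controls and 11.69, 11.75 and 11.65 after Hlxb9 siRNA, a difference of 0.28 ± 0.13 (adjusted p = 0.662), or 0.17 without control replicate 3, and its other probe set differed by 0.21. Elovl4, an elongase of very long chains, differed by -0.29 ± 0.18. Elovl3 was dim, between 3.07 and 3.65, and differed by -0.26 ± 0.13, and by -0.13 without control replicate 3. Other desaturases had 4 of 5 members above 0 and a median of 0.13. Scd3, a further stearoyl-CoA desaturase, read 5.86, 6.19 and 6.19 in controls and 6.44, 6.55 and 6.04 after Hlxb9 siRNA and differed by 0.26 ± 0.16. Fads6 differed by 0.13 ± 0.11 and Degs1, the desaturase of ceramide synthesis, by -0.18 ± 0.12 (-0.090 without control replicate 3, 0.18 on its other probe set).

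**Figure D4:**
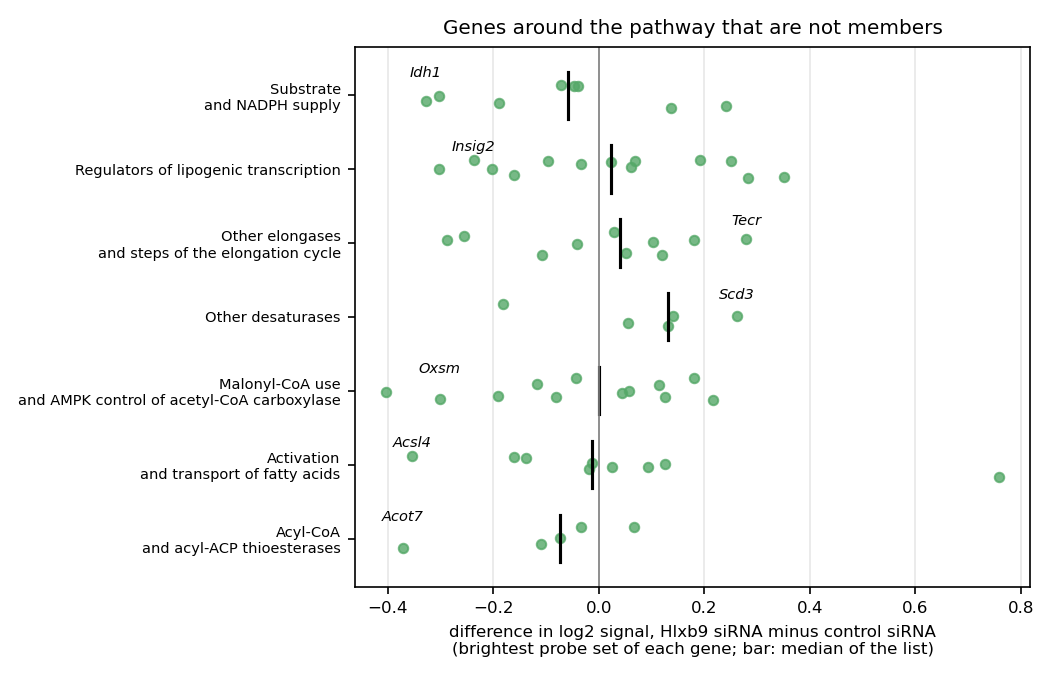
Difference in log2 signal between Hlxb9 siRNA and control siRNA for the 62 related genes in 7 lists, each point 1 gene, with the list median as a bar and the gene of smallest p in each list named. List medians lie between -0.074 and 0.13, and the point farthest right is Fabp3 at 0.76.

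Genes of malonyl-CoA use and of AMPK, the kinase that inactivates acetyl-CoA carboxylase, were even, 6 of 12 above 0, with a median of 0.0014, and of 0.071 without control replicate 3. Cpt1a, the mitochondrial entry enzyme that malonyl-CoA inhibits, read 8.87, 9.38 and 9.85 in controls and 8.62, 9.03 and 9.24 after Hlxb9 siRNA. It was lower in each pair, and the difference of -0.40 ± 0.26 log2 (adjusted p = 0.713, and 0.496 with the replicate block) was -0.16 without control replicate 3, with other probe sets at -0.40 to 0.26. Oxsm, of mitochondrial fatty acid synthesis, differed by -0.30 ± 0.16 (mean of its probe sets 0.021) and Prkab2, an AMPK subunit, by 0.18 ± 0.13 (0.29 without control replicate 3).

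Activation and transport of fatty acids had 4 of 9 members above 0 and a median of -0.013, which was 0.00051 without control replicate 3. Acsl4, the acyl-CoA synthetase that favours arachidonate, had the smallest p of the 62. It read 11.51, 11.42 and 11.24 in controls and 10.86, 11.07 and 11.18 after Hlxb9 siRNA, all 3 below the controls, with a difference of -0.35 ± 0.13 log2 (unadjusted p = 0.0241, adjusted p = 0.645) and of -0.43 without control replicate 3. Its other probe sets differed by -0.47 to 0.0098. Fabp3, a cytosolic fatty acid binding protein, read 7.56, 7.55 and 6.27 in controls and 8.05, 7.89 and 7.71 after Hlxb9 siRNA. The difference was 0.76 ± 0.33 (adjusted p = 0.654), 0.33 without control replicate 3, and -0.079 on its other probe set. Fabp5 differed by -0.14 ± 0.10, and by 0.28 on its other probe set. Thioesterases had 1 of 5 members above 0 and a median of -0.074, which was -0.011 without control replicate 3. Acot7, an acyl-CoA thioesterase, read 9.72, 10.01 and 9.72 in controls and 9.47, 9.73 and 9.14 after Hlxb9 siRNA, a difference of -0.37 ± 0.17 (adjusted p = 0.664). Acot1 and Olah were dim, between 2.69 and 3.80, and differed by -0.074 and -0.11, Olah by 0.015 without control replicate 3.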

How the data were processed

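Gene expression was measured on 6 Affymetrix mouse arrays hybridised with biotinylated cRNA from 6 ug of total RNA, per the labels' protocols. The deposited values are log2 signals per probe set. The submitters' processing notes list RMA (background correction, quantile normalization and summary of the probes) and Partek, with no version or setting. Precision rests on the number of arrays, since signal carries no depth.

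Affymetrix's own 64 control probe sets were left out. The groups were compared with lmFit and eBayes of limma 3.58.1 under R 4.3.3, with statmod 1.5.0, without covariates and two-sided, adjusted by Benjamini-Hochberg over all 45037 probe sets at 0.05. Differences are given with limma's moderated standard error (SE) and 95% interval. The fit was also run on simulated data with normal noise, no outlying array and no pairs. There it called a share of 0.0149 of true differences of 0.5 log2, 0.478 of those of 1 and 0.955 of those of 2. The 95% intervals held the true difference for a share of 0.93 of the changed probe sets. No value was dropped or imputed. Symbols came from the platform annotation, where 34945 probe sets have 1 symbol, 932 several and 9160 none, and promoter sequences from RefSeq (GRCm38.p6). Related genes were read by the probe set with the highest mean, and up to 3 per list with the smallest p are named, beside Mnx1 and every member probe set.

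Replicate numbers 1 to 3 occur in both groups. Deviations from group means correlated between arrays of equal number at 0.155, 0.165 and 0.202, each over 0.1, so equal numbers count as pairs. Printed errors and p-values still come from the fit without the block, and the blocked value is given where it changes a count. The pairing rests on the values, as no label names a common day or culture. Alternatives were the replicate block, centring, repeated quantile normalization, an offset of 32, a filter on dim probe sets, a trended robust prior, array weights, averaging all probe sets of a gene and leaving out each array. The members, lists and alternatives were chosen with earlier results of these data known.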

Additional observations from a re-analysis of the deposited data

How the results depend on the processing

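No member was called under any alternative, and precision is limited by 3 arrays per group. With the replicate block limma called 0 probe sets over the array, the smallest adjusted p of a member was 0.574, and the paired fit changed no call at the adjusted threshold. Array weights were 0.204 for control replicate 3, 4.46 for control replicate 2, 2.91 for Hlxb9 siRNA replicate 2 and 0.628 to 0.792 for the others. The weighted fit thus leaned mainly on 1 array per group. It called 1132 probe sets over the array and put 1 member at an unadjusted p of 0.05, against 24.9% of all probe sets. The dim filter left 18 of the 21 probe sets, so no median over all members was computed under it. The causes of the changes below were not tested.

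The members' median was -0.085 after centring and -0.050 to 0.0075 when 1 array was left out, the latter without control replicate 2, where 1 member passed an unadjusted p of 0.05 (6.63% of all probe sets there; 0 to 1 members and 3.9% to 10.2% of all over the arrays left out). Signs reversed after centring for Scd1 1415965_at (-0.037), Elovl6 1417403_at (-0.042) and Fads1 1440444_at (-0.010), and with quantile normalization repeated for the same probe sets (-0.048, -0.074 and -0.013). With array weights they reversed for Fasn (0.027), Acaca 1434185_at (0.12), Scd2 1415823_at (-0.037), Scd2 1415824_at (-0.0079), Elovl6 1417403_at (-0.035) and Fads1 1423680_at (0.077). Averaged over all its probe sets, Scd2 was 0.18, Fads1 0.0021, Insig2 0.059, Oxsm 0.021 and Fabp5 0.073, each opposite to its brightest probe set.

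With 1 array left out at a time, differences crossed 0 for these. Fasn ran from -0.12 to 0.066, Acaca 1427595_at from -0.21 to 0.034, Acaca 1434185_at from -0.28 to 0.074 and Acacb 1427052_at from -0.11 to 0.12. Scd1 1415964_at ran from -0.18 to 0.083, Scd1 1415965_at from -0.073 to 0.13, Scd2 1415823_at from -0.20 to 0.84 and Scd2 1415824_at from -0.19 to 0.35. Elovl5 1415840_at ran from -0.16 to 0.064, Elovl5 1437211_x_at from -0.076 to 0.017, Elovl6 1417403_at from -0.15 to 0.18 and Elovl6 1442656_at from -0.14 to 0.042. Fads1 1423680_at ran from -0.12 to 0.10, Fads1 1440444_at from -0.078 to 0.21, Srebf1 from -0.49 to 0.044 and Olah from -0.25 to 0.015.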
